A study of Macaca mulatta with 10 samples.

Results

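The MHC class II genes were examined in RNA from flow-sorted Tr1 cells of rhesus monkeys. The 8 genes were HLA-DRA, HLA-DPA1, HLA-DPB1, HLA-DQA1, HLA-DMA, HLA-DMB, CD74 and CIITA, chosen by their symbols among the 26484 genes of the deposited count table. Macaque reads had been mapped to the human genome, so all genes carry human symbols. Tr1 cells are regulatory CD4+ T cells, sorted here as CD4+CD49b+LAG3+ from the blood of 10 monkeys, with 1 library per monkey. Monkeys of both cohorts had been made diabetic with streptozotocin. They received islet allografts matched at 1 DRB allele under a short course of anti-CD40 antibody 2C10R4, rapamycin, tocilizumab and etanercept. The 5 Cohort B monkeys (13EP12, 13EP8, 14HP26, 14HP31 and 15CP6) had no infusion of apoptotic donor leukocytes (ADL), and the 5 Cohort C monkeys (13EP5, 14HP33, 14HP24, 15CP1 and 15CP4) had ADL infusions added. The labels put blood collection at sacrifice, which for Cohort C was the 365-day end point and for Cohort B was rejection. For 13EP12, 13EP8 and 15CP1 the study itself lists another end than the labels do. The day of sampling, rejection and ADL therefore cannot be told apart here. Ages of the single monkeys are not given in the sources used here. Mononuclear cells were frozen, thawed and rested overnight before the sort.

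MHC class II molecules present peptides to CD4+ T cells and are built from an alpha and a beta chain. The invariant chain CD74 guides new class II molecules to endosomes and blocks their groove, and the DM molecule exchanges the last piece of CD74 for peptide. Transcription of these genes is switched on by CIITA, with RFX5, RFXAP, RFXANK, NF-Y and CREB1 bound at their promoters. B cells, monocytes and dendritic cells carry class II molecules, and activated T cells of primates, unlike those of mice, make them too. LAG-3, a marker used in this sort, and CD4 itself are receptors for class II.

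The libraries differed widely in depth. Cohort B libraries held 6076 to 1392157 counts (median 455470) and Cohort C libraries 66485 to 5895609 (median 968423). In 14HP33 the MTRNR2L genes, a family of near-identical copies, took 87.0% of all counts. T cell transcripts were sparse in several libraries. Of the 14 listed T cell markers 11 were in the table, and their summed counts were 0 in 14HP31, 11 in 15CP4, 16 in 14HP33 and between 63 and 12549 in the other libraries. CD4 had no count in 14HP26, 14HP31, 14HP33 or 15CP4. Fold changes are therefore also given for the other 6 libraries, those with CD4 counts (13EP12, 13EP8 and 15CP6 of Cohort B, 13EP5, 14HP24 and 15CP1 of Cohort C), a choice made after seeing the data. Levels below are counts per 1000000 counts of the library (CPM) after TMM scaling unless raw counts are named, and the floor of a library is what 3 counts amount to in it. Each monkey is a separate animal, and counting intervals cover counting error only.

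CD74 was the member seen in every library. It was 1 of only 39 genes with a count in all 10 libraries, among 17325 genes with a count in any. Raw counts of CD74 in Cohort B were 956 in 13EP12, 786 in 13EP8, 18 in 14HP26, 22 in 14HP31 and 482 in 15CP6. In Cohort C they were 8997 in 13EP5, 170 in 14HP33, 30 in 14HP24, 4199 in 15CP1 and 145 in 15CP4. As TMM CPM, CD74 stood at 827, 599, 106, 868 and 1063 in Cohort B and at 2796, 2414, 173, 869 and 903 in Cohort C, in the same order of monkeys. Both cohorts held a library far below the rest, 14HP26 and 14HP24, and the highest values were those of 13EP5 and 14HP33. The cohorts overlapped. The mean of log2(CPM + 1) was 9.10 ± 1.35 (SD, n = 5) in Cohort B and 9.94 ± 1.6 (SD, n = 5) in Cohort C (two-sided exact permutation p = 0.429, adjusted p = 1.0 over all genes). The edgeR log2 fold change of Cohort C over Cohort B was 1.05 (SE 1.81, adjusted p = 1.0), and in the 6 libraries with CD4 counts it was 0.52, where the difference of means was -0.11. In these bulk libraries, fewer cells of a type and less RNA per cell cannot be told apart.

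The scaling weighed heavily on 2 of these values. Scaled by the library total alone, CD74 was at 176 CPM in 14HP33 and at 3621 CPM in 14HP31, against 2414 and 868 after TMM. With that scaling the CD74 fold change was -0.035 on the log2 scale. Set against ACTB, the beta-actin gene, CD74 had 0.152 to 0.40 counts per ACTB count in 4 Cohort B libraries and 0.112 to 0.408 in 13EP5, 14HP24 and 15CP1. CD74 exceeded ACTB in 14HP33, at 3.86 counts per ACTB count, and in 15CP4, at 1.04. ACTB had only 44 and 139 counts in those libraries, and 0 in 14HP31.

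HLA-DRA, the alpha chain shared by all DR molecules, had the second largest total of the members, at 4684 counts. In Cohort B it had 335 counts in 13EP12, 389 in 13EP8, 290 in 15CP6 and 0 in both 14HP26 and 14HP31. In Cohort C it had 1914 counts in 13EP5, 1728 in 15CP1, 18 in 14HP24, 10 in 15CP4 and 0 in 14HP33. Both cohorts thus ran from no count to a high level, which was 640 CPM in 15CP6 and 595 CPM in 13EP5. The zeros differ in what they allow. The floor of 3 counts was 494 CPM of the library total in 14HP31, above the 279 CPM of 13EP8. After TMM scaling that floor was 118 CPM, below the 297 CPM of 13EP8. Whether a level like that of 13EP8 was detectable in 14HP31 thus depends on the scaling. In 14HP26 the floor was 26.3 CPM and in 14HP33 it was 3.10 CPM, both of the library total. Both were below every library with HLA-DRA counts, which ran from 131 to 637 CPM of the library total. In 14HP33, however, 87.0% of that total was MTRNR2L counts. After TMM scaling its floor was 42.6 CPM, much nearer to the lowest library with HLA-DRA counts, 15CP4 at 62.3 CPM. Mean log2(CPM + 1) of HLA-DRA was 5.14 ± 4.72 (SD, n = 5) in Cohort B and 6.08 ± 3.64 (SD, n = 5) in Cohort C (two-sided exact permutation p = 0.833). The edgeR fold change was -0.14 on the log2 scale (SE 1.90, adjusted p = 1.0), opposite in sign to the difference of means and of either sign across alternatives. In the 6 libraries with CD4 counts it was -0.32, and without 14HP33 alone it was 0.18.

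HLA-DPB1, the beta chain of DP, was the member with the largest difference between cohorts, though it did not pass the adjusted test. It had 2 counts in 13EP12, 11 in 13EP8 and 0 in 14HP26, 14HP31 and 15CP6 of Cohort B. In Cohort C it had 64 counts in 13EP5, 29 in 14HP33, 0 in 14HP24, 105 in 15CP1 and 2 in 15CP4. Counts above the floor were thus found in 1 Cohort B library and in 3 Cohort C libraries. In TMM CPM these were 8.39 in 13EP8 against 19.9 in 13EP5, 412 in 14HP33 and 21.7 in 15CP1, and 14HP24 kept the cohorts overlapping. By library total alone, 14HP33 was at 29.9 CPM. Where no count was found, the floor in TMM CPM was 118 in 14HP31, 17.6 in 14HP26, 17.3 in 14HP24 and 6.62 in 15CP6. A level like that of 13EP5 was thus not detectable in 14HP31 and lay close to the floor in 14HP26 and 14HP24. The log2 fold change was 5.08 (SE 2.48, edgeR adjusted p = 0.218), and the mean of log2(CPM + 1) was 0.94 ± 1.43 (SD, n = 5) in Cohort B and 4.27 ± 3.09 (SD, n = 5) in Cohort C (two-sided exact permutation p = 0.0714, adjusted p = 1.0). The size of the difference hung on 14HP33, the library with 87.0% MTRNR2L counts: without it the log2 fold change was 2.38, in the 6 libraries with CD4 counts it was 1.87, and scaled by library totals alone it was 2.85. Without 13EP8 it was 6.56, and with an index suffix of some sample labels (15CP6, 14HP33 and 15CP1) as a covariate it was 2.70.

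The alpha chain that pairs with it, HLA-DPA1, had no count in any library, in counts or in FPKM. The same held for HLA-DMA and HLA-DMB, which encode the DM molecule. In the deepest library, 15CP1, with 5895609 counts, the floor of 3 counts is 0.509 CPM, while HLA-DRA stood there at 293 CPM of the library total. The nearby genes PSMB8, PSMB9, TAP1 and TAP2 had no count in that library either, and RPS18 had 1, a pattern set out further on for the whole stretch. No fold change can be given for these 3 members.

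HLA-DQA1, the alpha chain of DQ, had counts in 4 libraries. They were 36 in 13EP8 and 9 in 15CP6 of Cohort B, and 74 in 13EP5 and 47 in 15CP1 of Cohort C. The remaining 6 libraries had none, and among these was 13EP12, which has 1191070 counts and a floor of 2.60 CPM. Where it was detected its level lay between 9.72 and 27.4 CPM, and each cohort held 2 such libraries. The log2 fold change was -0.51 (SE 2.01, edgeR adjusted p = 1.0), and the exact permutation test gave a two-sided p = 0.841. In the 6 libraries with CD4 counts the log2 fold change was -0.59.

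CIITA, the transactivator, had low counts throughout. It had 23 counts in 13EP12, 57 in 13EP8, 17 in 15CP6 and 0 in 14HP26 and 14HP31. In Cohort C it had 57 counts in 13EP5, 6 in 14HP33, 2 in 14HP24, 112 in 15CP1 and 0 in 15CP4. Of the 6 libraries above the floor, the 3 of Cohort B stood at 19.9, 43.5 and 37.5 CPM and the 3 of Cohort C at 17.7 in 13EP5, 85.2 in 14HP33 and 23.2 in 15CP1. 14HP33 was thus highest on 6 counts, and 13EP5, first in CD74, was lowest of those 6. The log2 fold change was 0.32 (SE 2.08, edgeR adjusted p = 1.0), with a two-sided p = 0.714 in the exact permutation test. The sign rests on 14HP33, since without it the log2 fold change was -0.67, and it was -1.03 in the 6 libraries with CD4 counts.

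**Figure D1:**
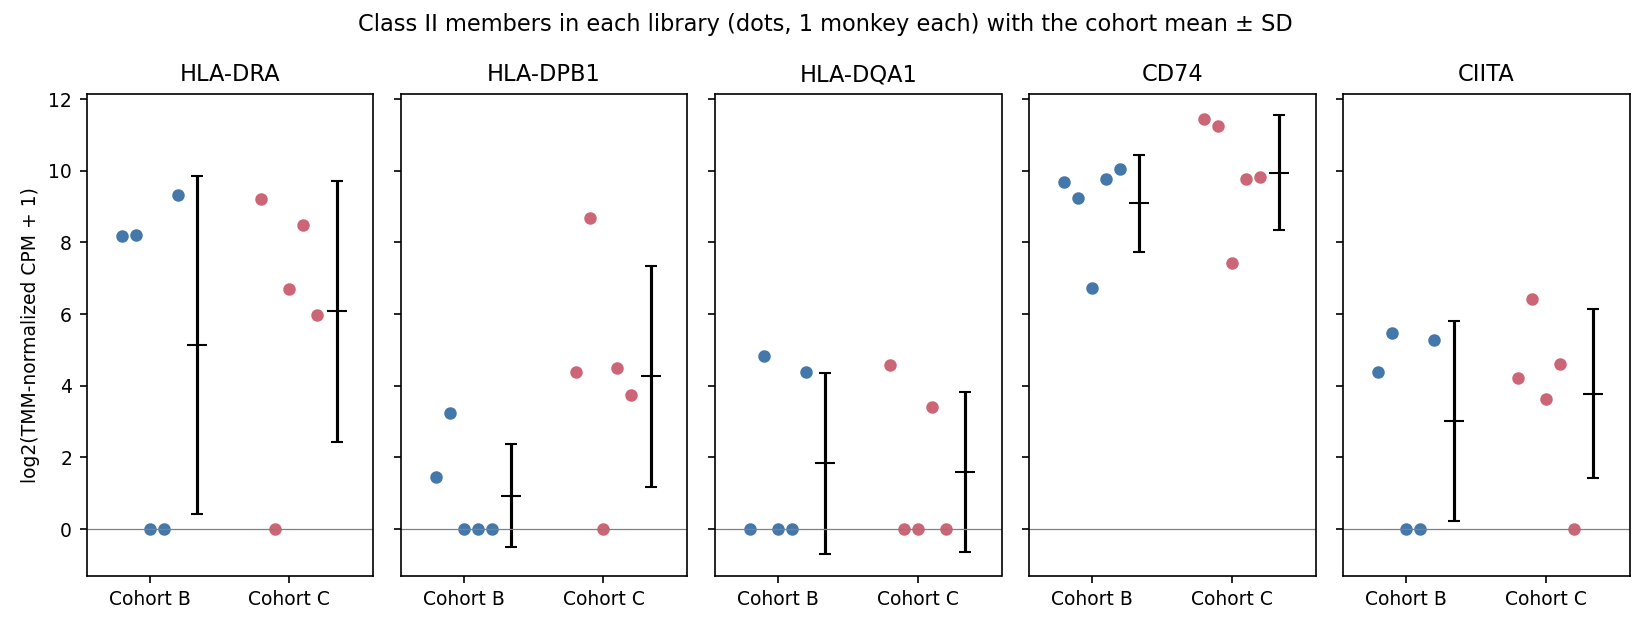
Levels of the 5 class II members with counts, as log2(TMM-normalized CPM + 1) on the vertical axis, in Cohort B (blue) and Cohort C (red); each dot is 1 monkey, placed in the order in which the monkeys are listed in the text, and the black bar is the cohort mean ± SD. CD74 lies above 6 in every library, the other members reach 0 in both cohorts, and in each panel the cohorts overlap.

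The make-up of the class II counts differed between libraries. CD74 gave between 60.0% and all of the members' summed counts, and HLA-DRA most of what remained in every library in which it was detected. For each HLA-DRA count there were 2.85 CD74 counts in 13EP12, 2.02 in 13EP8, 1.66 in 15CP6, 1.67 in 14HP24 and 2.43 in 15CP1. The ratio was 4.70 in 13EP5 and 14.5 in 15CP4, the latter on 10 HLA-DRA counts. These ratios are of counts and do not allow for transcript length. HLA-DPB1 made up 14.1% of the members' counts in 14HP33 (95% Wilson interval 10.0% to 19.6%), where HLA-DRA had none. It made up 1.70% in 15CP1 (1.4% to 2.05%) and 0.576% in 13EP5 (0.452% to 0.735%). In Cohort B it reached 0.860% in 13EP8 (0.481% to 1.53%) and 0.152% in 13EP12. CIITA took 4.46% in 13EP8 (3.46% to 5.73%), 1.81% in 15CP1 (1.51% to 2.17%) and 0.513% in 13EP5 (0.396% to 0.664%), intervals that do not overlap. The 2 deepest libraries, both of Cohort C, therefore differed in their mix of members by more than counting error.

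**Figure D2:**
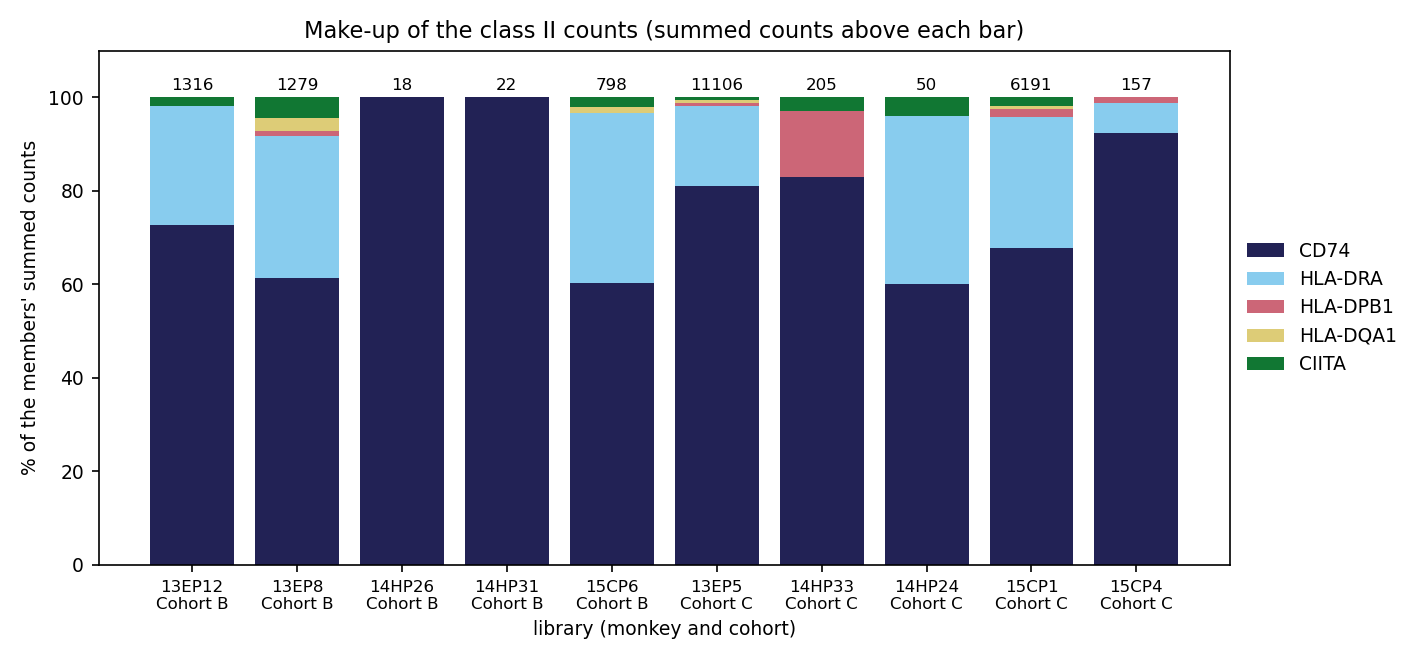
Share of each member in the members' summed raw counts (vertical axis, percent) for each library, with the summed count above each bar. CD74 is the largest share in all 10 libraries, HLA-DRA is absent from 14HP26, 14HP31 and 14HP33, and HLA-DPB1 is largest in 14HP33.

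All 8 members together took 0.110% of all counts in 13EP12 (95% Wilson interval 0.105% to 0.117%), 0.0919% in 13EP8 (0.0870% to 0.0970%) and 0.175% in 15CP6 (0.163% to 0.188%). The share was 0.0158% in 14HP26 (0.010% to 0.025%) and 0.362% in 14HP31 (0.239% to 0.548%), where it rests on 22 CD74 counts. In Cohort C it was 0.332% in 13EP5 (0.326% to 0.339%), 0.105% in 15CP1 (0.102% to 0.108%) and 0.236% in 15CP4 (0.202% to 0.276%). It was 0.0212% in 14HP33 (0.0185% to 0.0243%) and 0.0365% in 14HP24 (0.0277% to 0.0481%). The cohorts overlapped, and the share varied widely within each. With the MTRNR2L genes left out of the total it rose to 0.162% in 14HP33, and Cohort C then ran from 0.0479% in 14HP24 to 0.417% in 15CP4 and Cohort B from 0.0222% in 14HP26 to 0.429% in 14HP31.

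No member was called between cohorts. Of the 5 members tested, 0 passed an adjusted p under 0.05 in edgeR, as did 0% of all 14168 genes. By the rule of an unadjusted p under 0.01 with at least 1.5-fold, 0 members passed, against 6.43% of all genes (1.07% higher in Cohort C and 5.36% lower). HLA-DPB1 was the 1 member with an unadjusted p under 0.05, which 20.6% of all genes had. In the exact permutation test, 0 members and 0.24% of all genes had an unadjusted p under 0.05, 0 members and 0% of genes an adjusted one, and the smallest p that 5 against 5 libraries allow is 0.00794. The cohorts did not overlap for 0.0141% of all genes and for no member. Of the 5 log2 fold changes 3 were above 0 and 2 below, with a median of 0.32 beside 0.16 for all genes tested. No member was called when any 1 library was left out, nor in the 8 libraries with at least 100000 counts, where CD74 had a log2 fold change of 1.27 and HLA-DPB1 of 5.25, nor in the 6 libraries with CD4 counts.

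**Figure D3:**
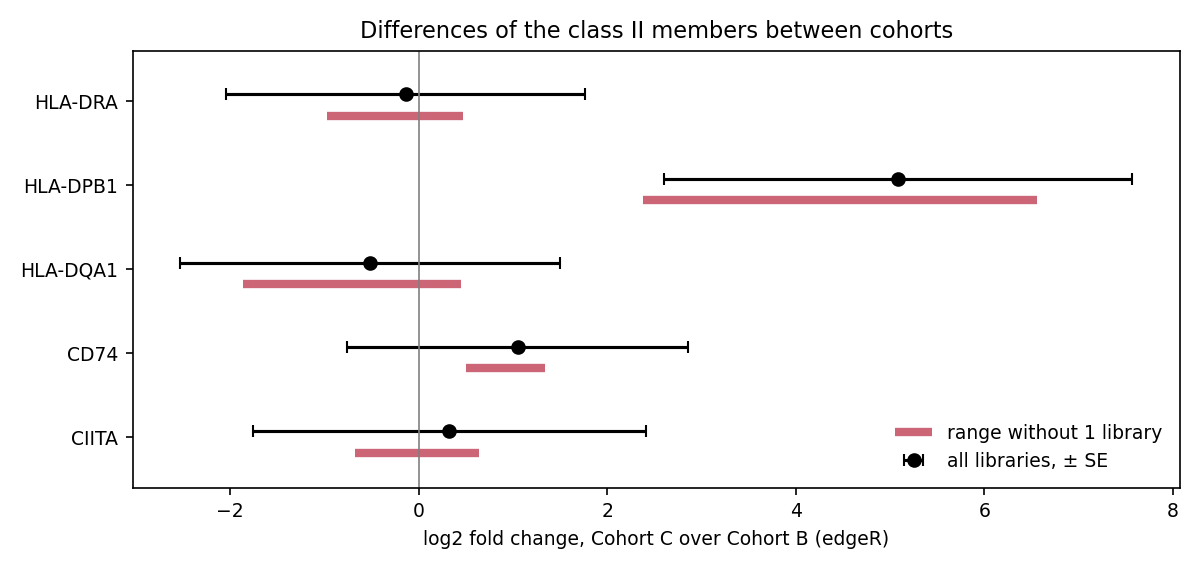
Log2 fold change of Cohort C over Cohort B (horizontal axis) for the 5 tested members, with the black point and bar giving the edgeR estimate ± SE from all libraries and the red bar the range of the estimate when each library is left out in turn. The red bars of HLA-DPB1 and CD74 stay above 0 and those of HLA-DRA, HLA-DQA1 and CIITA cross it, while the black bar crosses 0 for every member but HLA-DPB1, and scaling by library totals puts CD74 itself at -0.035.

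Other class II genes were at low counts as well. Of 9 listed, HLA-DQA2, HLA-DQB2 and HLA-DOB had no count in any library, and 4 were tested. All 4 had a fold change above 0, as did 7585 of all 14168 genes tested, and none was called. Their median log2 fold change was 0.73, beside 0.16 for all genes tested. HLA-DRB5, a DR beta chain, had 21 counts in 13EP12, 39 in 13EP8, 45 in 15CP6, 399 in 13EP5, 296 in 15CP1 and 0 in the rest (log2 fold change 0.31, SE 2.05, edgeR adjusted p = 1.0). HLA-DQB1, the DQ beta chain, had 10 counts in 13EP12, 19 in 13EP8, 143 in 13EP5, 2 in 14HP33, 161 in 15CP1 and 0 in the rest (log2 fold change 1.97, SE 2.15, adjusted p = 0.886). HLA-DRB1 had 32 counts in 13EP8, 63 in 13EP5, 97 in 15CP1 and at most 2 elsewhere (log2 fold change 1.15, SE 2.08, adjusted p = 1.0). HLA-DRB3, which was not on the list and was added after its values were seen, had 5 counts in 13EP12, 42 in 13EP5, 13 in 15CP1 and 0 in the rest (log2 fold change 1.58, SE 1.81, adjusted p = 0.908). The DRB genes among these are near copies of each other, and class II genes vary between animals, so reads of 1 locus could be counted at another.

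None of the genes that act with the members was called. Of the 7 promoter factors, all tested, 4 had a fold change above 0 and 3 below. NFYA, a subunit of NF-Y, had counts in 8 libraries and a log2 fold change of 0.03 (SE 2.02), and RFX5, a subunit of RFX, one of -0.42 (SE 2.05) with counts of 45, 119, 133 and 273 in 13EP12, 13EP8, 13EP5 and 15CP1. NFYB stood at 1.85 (SE 2.13), CREB1 at 1.32 (SE 2.06) and NFYC at -0.25 (SE 2.06). The largest value of the list was that of RFXAP, another RFX subunit, at 5.98 (SE 2.40, edgeR adjusted p = 0.141), with 4 counts in 13EP5, 2 in 14HP33, 39 in 15CP1 and 0 in the rest. Of the 6 genes through which interferon-gamma induces CIITA, 3 were above 0 and 3 below, and their largest log2 difference was -0.42 (SE 1.84) for JAK1, a kinase of the interferon-gamma receptor. IRF1, a factor that binds the CIITA promoter, had counts in 8 libraries, among them 33 in 14HP26 and 8 in 14HP33, where CIITA had 0 and 6. Of 11 listed symbols for the processing of invariant chain and peptides and for turnover, 7 were in the table, 4 above 0 and 3 below. The rest were MARCH1 and MARCH8, each listed under an old and a new symbol. The count table has 28 rows with a date in place of a symbol, so whether these genes were counted is not known. CTSS, the protease that trims the invariant chain, had 64 counts in 13EP12, 242 in 13EP8, 92 in 15CP6, 624 in 13EP5, 1543 in 15CP1 and at most 1 in the rest (log2 fold change 0.22, SE 1.98). Of the receptors for class II, CD4 had 338 counts in 13EP12, 94 in 13EP8, 13 in 15CP6, 772 in 13EP5, 19 in 14HP24 and 766 in 15CP1. LAG3 had 10 counts in 13EP12, 16 in 13EP5 and 12 in 15CP1, and none in the other libraries, although LAG-3 protein was used for the sort.

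In FPKM, which allow for transcript length, CD74 was the highest member wherever it could be compared. It was at 443 FPKM in 13EP12, 222 in 13EP8, 30.1 in 14HP26, 1171 in 14HP31 and 130 in 15CP6. In Cohort C it was at 6733 FPKM in 13EP5, 18.5 in 14HP33, 41.9 in 14HP24, 286 in 15CP1 and 1788 in 15CP4. HLA-DQA1 was at 13.4 FPKM in 13EP8, 51.8 in 13EP5 and 1.66 in 15CP1, and CIITA at 8.31, 6.11, 4.78 and 3.19 in 13EP12, 13EP8, 13EP5 and 15CP1. HLA-DQA1 thus lay above CIITA in 13EP8 and 13EP5 and below it in 15CP1, and with no depth in this table these gaps have no interval. HLA-DRA and HLA-DPB1 were listed at 0 FPKM in every library despite their 4684 and 213 counts, so they could not be placed in this order. Among 2439 genes with at least 1000 counts and a place in both tables, HLA-DRA was 1 of 3 (0.123%) listed at 0 FPKM throughout, beside the microRNA genes MIR7641-2 and MIR4426. By limma on log2(FPKM + 1), CD74 differed by 0.52 (SE 3.62), HLA-DQA1 by 0.66 (SE 1.36) and CIITA by -0.29 (SE 1.33) between Cohort C and Cohort B, each with an adjusted p of 1.0. None of these 3 genes was called, as were 0% of the 10307 genes tested, and 0.146% of genes had an unadjusted p under 0.05.

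The zeros were set beside the genes next to the members, a look chosen after the values had been seen. Gene order was taken from the macaque RefSeq annotation of assembly T2T-MMU8v2.0. Only genes whose macaque symbol could be matched to the count table were placed. From HLA-DPA1 to HLA-DRA these were 14 genes, of which 8 (57.1%) had no count in any library. The member HLA-DPB1, with 213 counts, had no matched macaque symbol and is not placed in this order. HLA-DRB1, with 196 counts, is not among the placed genes either. Among them were PSMB8 and PSMB9, subunits of the immunoproteasome, and TAP1 and TAP2, the peptide transporter of class I loading. Of the 20 placed genes before this stretch 10 had no count (50%), and of the 20 after it 16 (80.0%). The share was 18.2% of the 16532 macaque protein-coding symbols found in the table. RPS18, a ribosomal protein gene, had 1 count in all libraries together, and BRD2, a widely expressed chromatin reader inside the stretch, had 51. Low counts were thus shared by genes around the class II loci that have other functions. CD74 and CIITA lie on other chromosomes. What set these zeros was not tested, and the counter's handling of alternate contigs of hg38 is not given in the sources used here.

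**Figure D4:**
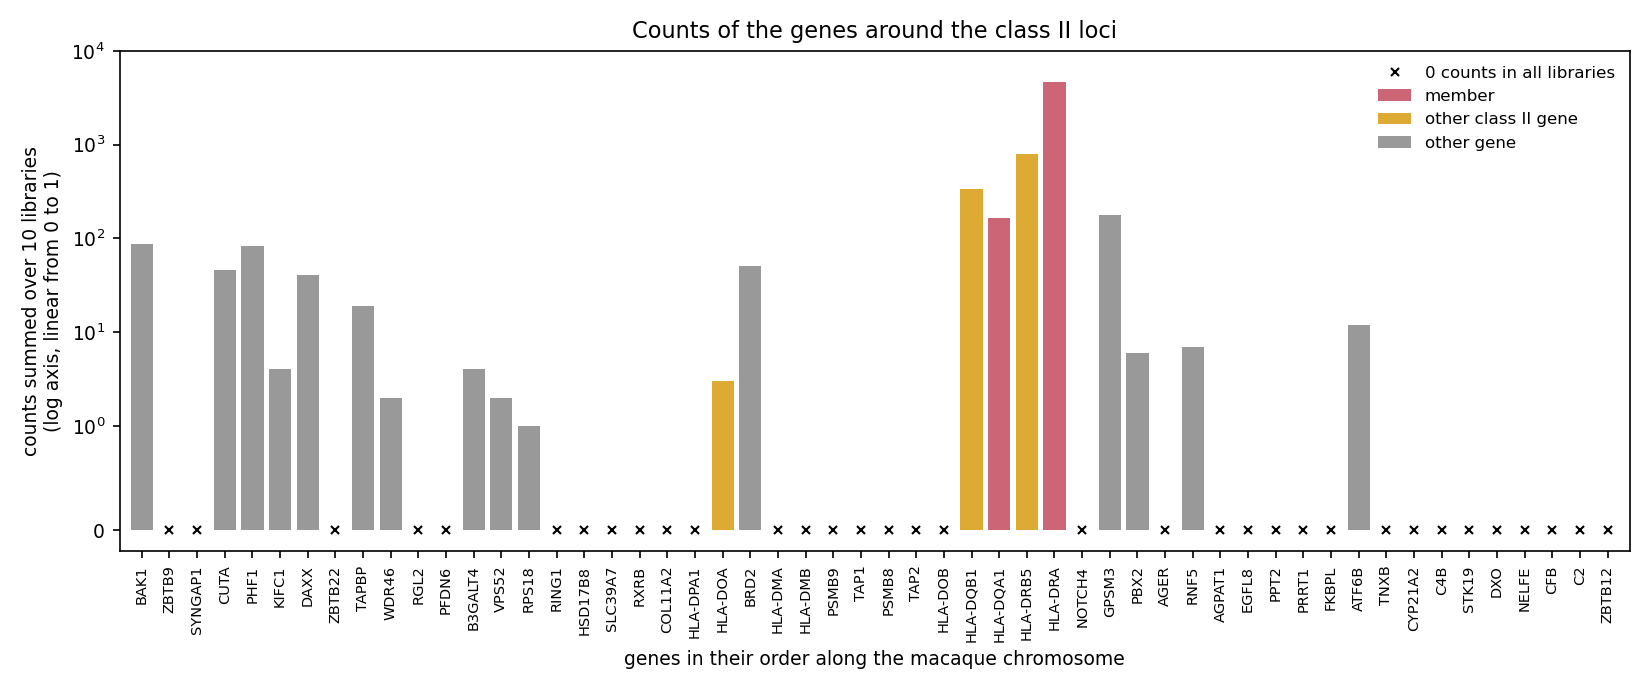
Raw counts summed over the 10 libraries (vertical axis, log scale that is linear from 0 to 1) for genes in macaque gene order. Among genes with a matched macaque symbol, they run from 20 before HLA-DPA1 to 20 after HLA-DRA. The member HLA-DPB1 had no matched symbol and is not shown. Members are red, other class II genes yellow and other genes gray, and a cross marks 0 counts, as at HLA-DPA1, HLA-DMA and HLA-DMB. HLA-DRA has the highest bar, at 4684 counts.

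The members were then set beside markers of the cells that a sort of blood could hold. Of 10 B cell markers, the summed counts ran from 1 to 122 in Cohort B and from 0 to 639 in Cohort C. Of 11 monocyte markers they ran from 0 to 1808 and from 0 to 7383, and of 8 dendritic cell markers from 0 to 112 and from 0 to 353. None of these genes was called at an adjusted p under 0.05. By the unadjusted rule 1 of the 27 tested was, beside 6.43% of all genes. It was CLEC9A, a dendritic cell gene with 16 counts in 15CP6 alone. In 13EP12, 13EP8 and 15CP1 the members had 0.522, 0.462 and 0.493 counts per T cell marker count, and the monocyte markers 0.634, 0.654 and 0.588. In the same order, VCAN alone gave 1104 of 1597, 1084 of 1808 and 4416 of 7383 monocyte marker counts, while CD14 gave 45, 28 and 295. These 3 libraries, from both cohorts, had close ratios of members to T cell markers and of monocyte to T cell markers, the latter largely of VCAN.

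13EP5 did not share those ratios. It had 1.78 member counts per T cell marker count, with 0.113 for the monocyte markers, 0.0410 for the B cell markers and 0.0567 for the dendritic cell markers. Its B cell ratio was close to the 0.0397 of 13EP12 and the 0.0441 of 13EP8. Within the monocyte list the genes differed: S100A8, S100A9 and FCN1 were at 0 in 13EP5 and VCAN at 184, against 128, 611, 44 and 4416 in 15CP1, and FCN1 was at 0 in every library but 15CP1. CSF1R had 134 counts, LYZ 125, CD68 114, CD163 97 and CD14 36 in 13EP5, against 284, 668, 247, 254 and 295 in 15CP1, which had 12549 T cell marker counts to the 6226 of 13EP5. Of the B cell genes, MS4A1 was at 0 in 13EP5 and at 199 in 15CP1, while CR2 had 81 counts, BANK1 65, CD79A 54 and BLK 37 in 13EP5. Platelet markers summed to 502 counts in 13EP5 and to 13 in 15CP1. FLT3, a receptor of dendritic cells and progenitors, had 300 of the 353 dendritic cell marker counts in 13EP5 and 55 counts in 15CP1. FCER1A had 50 and 7 counts in these libraries, while CD1C had 0 and 84, LILRA4 0 and 32 and ZBTB46 2 and 19. The markers of activated T cells summed to 2755 in 13EP5 and 2507 in 15CP1, of which MKI67, a gene of cycling cells, gave 1035 and 678. The part of any of these cells in the class II counts of 13EP5 was not tested. 15CP6 had 1.43 member counts per T cell marker count, with 0.751 for the monocyte, 0.0215 for the B cell and 0.0984 for the dendritic cell markers, the last being the highest of the libraries, and 188 erythroid counts. Of its 420 monocyte marker counts 338 were of VCAN, and CD14, S100A8, S100A9 and FCN1 were at 0.

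The sparsest libraries kept CD74 with few counts of any listed cell type. 14HP31 had 22 CD74 counts, with 0 counts of the T cell, monocyte and dendritic cell markers and 1 of the B cell markers. CD74 ranked 44 among the 465 genes counted there. 15CP4 had 157 member counts against 11 T cell marker counts, all of CD5, and 0 of the monocyte, B cell and dendritic cell markers. 14HP33 had 205 member counts against 16, 1, 0 and 0 of the T cell, monocyte, B cell and dendritic cell markers, and 93 of the erythroid markers. In 14HP24 and 14HP26 the order was different, with 50 and 18 member counts below 98 and 115 monocyte marker counts. In 14HP26 all 115 came from CLEC7A.

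**Figure D5:**
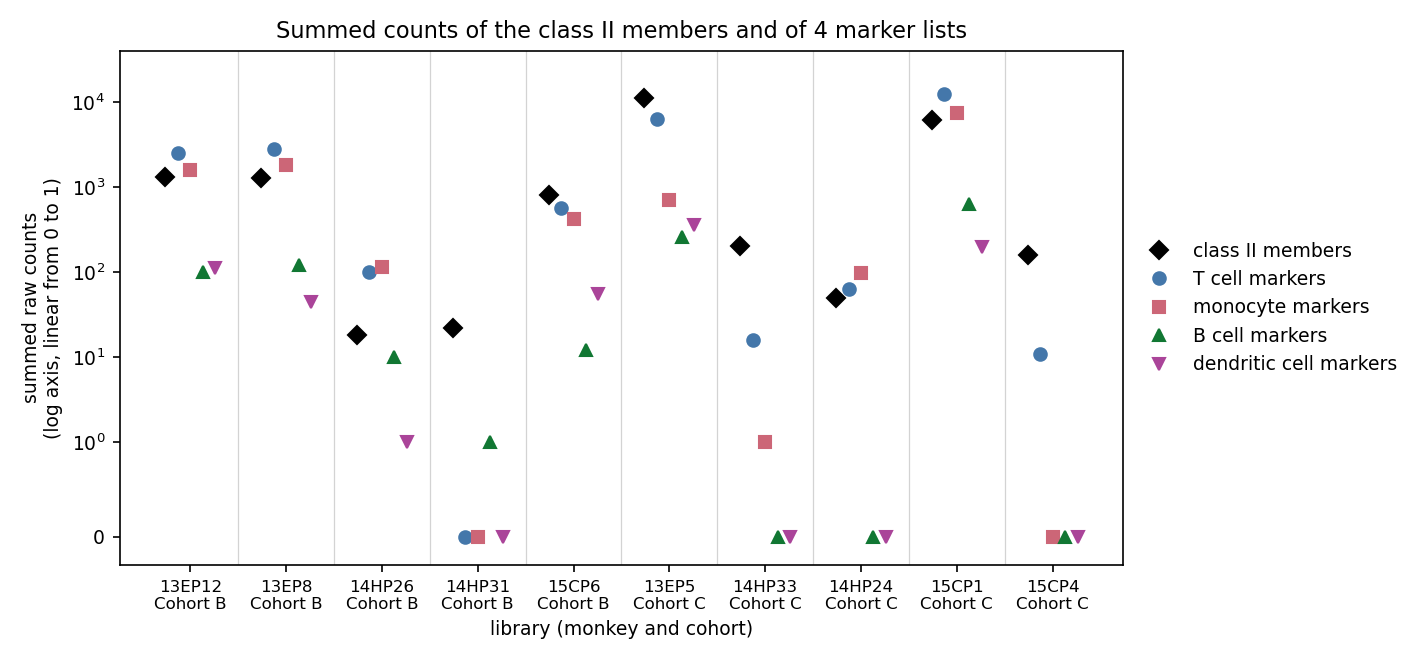
Summed raw counts (vertical axis, log scale that is linear from 0 to 1) of the 8 class II members and of the T cell, monocyte, B cell and dendritic cell markers in each library. The members lie above all 4 marker sums in 15CP6, 13EP5, 14HP33, 15CP4 and 14HP31 and below the T cell markers in 13EP12, 13EP8, 14HP26, 14HP24 and 15CP1.

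The genes whose pattern over the 10 libraries was most like that of the summed members were listed by Pearson's r of log2(CPM + 1), over 3411 genes with enough counts, as a description without a test. WDFY4 came first, with r = 0.83 and counts in 7 libraries. PABPC1 (r = 0.82), FNBP1 (r = 0.82), EIF5 (r = 0.80), SARS (r = 0.78), SF3B6 (r = 0.78), DBN1 (r = 0.77), OXCT1 (r = 0.77), BRMS1L (r = 0.77) and LUC7L2 (r = 0.77) followed. Over the 6 libraries with CD4 counts alone, r of these 10 genes ran from 0.73 (BRMS1L) to 0.94 (DBN1). These 6 are among the 10 libraries by which the genes were chosen, so this range is no separate check of the likeness. The median r over all genes compared in the 10 libraries was 0.25, and all values of a library share its depth and scaling. The correlation rests on 10 points, of which 14HP26 and 14HP24 are low in the summed members, at 106 and 288 CPM, against 868 to 3452 CPM in the other libraries.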

How the data were processed

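RNA of sorted Tr1 cells was sequenced as paired-end reads of 50 bases (RNeasy extraction, Pico Mammalian stranded libraries). The authors mapped reads with HISAT2 2.0.2 to hg38 and deposited raw counts per gene, whose counting options are not given in the sources used here. FPKM deposited by the authors came from Cuffdiff 2.2.1. Groups followed the sample labels. Cohorts were compared with edgeR 4.0.16 (R 4.3.3, TMM, quasi-likelihood) over the 14168 genes with at least 10 summed counts, with Benjamini-Hochberg adjustment over all of them and SE from the fold change and the statistic. Two-sided exact permutation tests over 252 assignments used log2(TMM CPM + 1) (Python 3.11.15, scipy 1.17.1). FPKM were tested as log2(FPKM + 1) with limma 3.58.1 at a mean of at least 1, where calling needed an adjusted p under 0.05 and over 1.4-fold. A fold change on these log scales understates that of low genes. Alternatives included DESeq2 1.42.0, other scalings and filters, a replicate block and leaving out each library. The edgeR step was tried on simulated counts, with dispersions that were set and not estimated from these libraries. The permutation step was tried on made-up rows with a known answer. The members, gene lists and tests were chosen with earlier results of these data known. All members were named, and other pathway genes with values only when above 3 counts in at least 3 libraries. Genes outside these lists (ACTB, MIR7641-2, MIR4426, and the genes along the chromosome), LAG3, RFXAP, HLA-DRB3 and the cell type markers given by name were named after their values were seen. No sequences were used.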

Additional observations from a re-analysis of the deposited data

Results flagged for a closer look

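CD74 in Cohort B monkey 14HP26 lay apart from the other monkeys of its cohort, at 6.74 on the log2(TMM CPM + 1) scale. Its gap to the nearest Cohort B library was 0.751 of the cohort's whole range, past the 95% critical value of Dixon's test for 5 samples. Chance marks about 1 in 20 groups, and 12 groups were examined, of which this was the only 1 so marked. The library has 113884 counts, of which 18 are of CD74.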

How the results depend on the processing

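No member was called under any of the 21 alternatives of the edgeR comparison, by either rule, nor when the permutation or FPKM comparison was changed. HLA-DPB1 stayed above 0 in all 20 that gave it a value. HLA-DPB1 and HLA-DQA1 had too few counts for the filterByExpr filter, and under it neither was tested. Scaling by library totals moved the median log2 fold change of all genes from 0.16 to -0.10, and gave -0.035 for CD74 (-0.15 in the difference of means) and -0.92 for CIITA. HLA-DRA turned above 0 with DESeq2 (0.15), limma-voom (0.42) and the index suffix as a covariate (0.0050), and CIITA turned to -0.44 with that covariate. The replicate numbers name different monkeys and did not pair the libraries: deviations of same-numbered libraries correlated between -0.19 and 0.16, and no library matched its own number best. With the replicate block, HLA-DRA was at 0.93 and HLA-DPB1 at 4.93, 0 members were called, and genes past the unadjusted rule went from 911 to 0. That count was 88 with edgeR's exact test, 69 with DESeq2, 67 with limma-voom, 10 with filterByExpr, 98 with the index covariate, 326 in libraries of at least 100000 counts and 146 in the 6 libraries with CD4 counts, an alternative chosen after seeing the data. At an adjusted p under 0.05, DESeq2 called 2 genes, and 1 gene was called in libraries of at least 100000 counts, in those with CD4 counts, and without each of 13EP5, 15CP1 and 15CP4. In the libraries with CD4 counts, CIITA turned to -1.03, and the difference of means to -0.44 for HLA-DRA, -0.11 for CD74 and -0.89 for CIITA. Leaving out 1 library at a time, the edgeR log2 fold change ran from -0.97 to 0.46 for HLA-DRA, 2.38 to 6.56 for HLA-DPB1, -1.87 to 0.45 for HLA-DQA1, 0.50 to 1.33 for CD74 and -0.67 to 0.64 for CIITA. The difference of means ran from -0.35 to 2.45, 2.22 to 4.4, -0.99 to 0.51, 0.26 to 1.47 and -0.0024 to 1.70 in the same order. In FPKM it ran from -0.42 to 1.43 for HLA-DQA1, -0.59 to 1.52 for CD74 and -0.69 to 0.21 for CIITA. Without the MTRNR2L genes in the total, the members' share was 0.231% in 15CP6, 0.344% in 13EP5, 0.162% in 14HP33, 0.109% in 15CP1 and 0.417% in 15CP4. The causes were not tested. Depth limits what a zero allows, up to 494 CPM of the library total in 14HP31, or 118 CPM after TMM scaling.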
